A study of Canis lupus familiaris with 10 samples.

Results

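The mitochondrial ribosomal protein (MRP) genes comprised every gene symbol of the deposited table that consists of MRPL or MRPS, a number and at most 1 further letter. This rule selected 76 of 23266 genes, of which 49 were MRPL genes, named for the large subunit of the mitochondrial ribosome, and 27 were MRPS genes, named for the small subunit. The rule uses symbols only, though the family was chosen for description with earlier results of these data known. The values came from canine cutaneous histiocytoma (CCH), a benign and spontaneously regressing skin tumor of dogs derived from Langerhans cells, the antigen-presenting cells of the epidermis. QuantSeq 3′ libraries, which hold a single fragment from the 3′ end of each transcript, had been made from formalin-fixed, paraffin-embedded (FFPE) tumors of 10 privately owned pet dogs of several breeds. Early CCH (n = 5) was group 1 and late CCH (n = 5) group 3 of the Cockerell and Slauson staging scheme, and the labels describe the late samples as lymphocyte enriched. The dogs were 0.5 to 5 years old in the early group (given for 4 of 5) and 1.5 to 9 years in the late group, and no treatment or genotype is stated for either.

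Mitochondria carry ribosomes of their own, which translate only the messenger RNAs encoded in mitochondrial DNA, and all of these encode subunits of the respiratory chain or of the ATP synthase. The proteins of these ribosomes are encoded in the nucleus, made in the cytosol, imported and assembled with ribosomal RNA that is transcribed inside the organelle. Compared with their bacterial relatives, mammalian mitochondrial ribosomes are rich in protein, and many of the proteins have no bacterial counterpart. Proteins of the same particle are needed in fixed proportions, although the amount of a protein need not follow that of its messenger RNA.

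The comparison of late and early CCH addressed whether tumors of the stages differ in gene expression, and several properties of the samples differed along with the stage. The libraries held 2973125 to 4439709 reads assigned to genes, with fewer in late CCH (exact two-sided permutation p = 0.0238, and 0.0556 to 0.0635 without late library 1, 4 or 5). The DV200, the share of RNA fragments over a set length, was 64.5 to 71.2% in early and 71.2 to 75.8% in late samples (exact p = 0.0238). All 12 T-cell markers were higher in late CCH in limma's test with Benjamini-Hochberg (BH) adjustment, and their summed normalized read count ranged from 84.7 to 2613 in early and from 3996 to 6732 in late libraries, with CD5 at 0 in a single early library. Of 8 Langerhans and dendritic cell markers tested, 3 were lower (CD1A8, FLT3 and FCER1A), CCR7 was higher and the other 4 did not pass the BH threshold, and their summed count was 795 to 2305 in early and 711 to 1030 in late libraries. CD1A8, for example, ranged from 42.8 to 316 in early and from 0 to 35.8 in late CCH. The part of these properties in any difference below was not tested. The study lists the stages in different RNA extraction batches, which means that batch cannot be told apart from stage.

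All 76 MRP genes passed the filter of a normalized read count of at least 10 in at least 5 libraries, among the 12397 genes tested. Their transcripts were of moderate abundance, with a mean over the 10 libraries between 24.7 for MRPL48 and 629 for MRPL21 and a median of 130, against a median of 89.2 over all genes tested. A single library held 10 to 1152 reads of a member. Of the members, 54 lay in the upper part of all genes tested when these were divided at the median. QuantSeq 3′ counts do not grow with transcript length, so that these levels can be set beside each other, within the limits of how well each 3′ end is annotated and how uniquely its reads map. The members with the highest means after MRPL21 were MRPL28, MRPL41, MRPL20 and MRPL18, which all belong to the large subunit. The lowest after MRPL48 were MRPS34 and MRPS14, both of the small subunit. The 5 highest members together supplied 18.2% of the summed level.

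**Figure D1:**
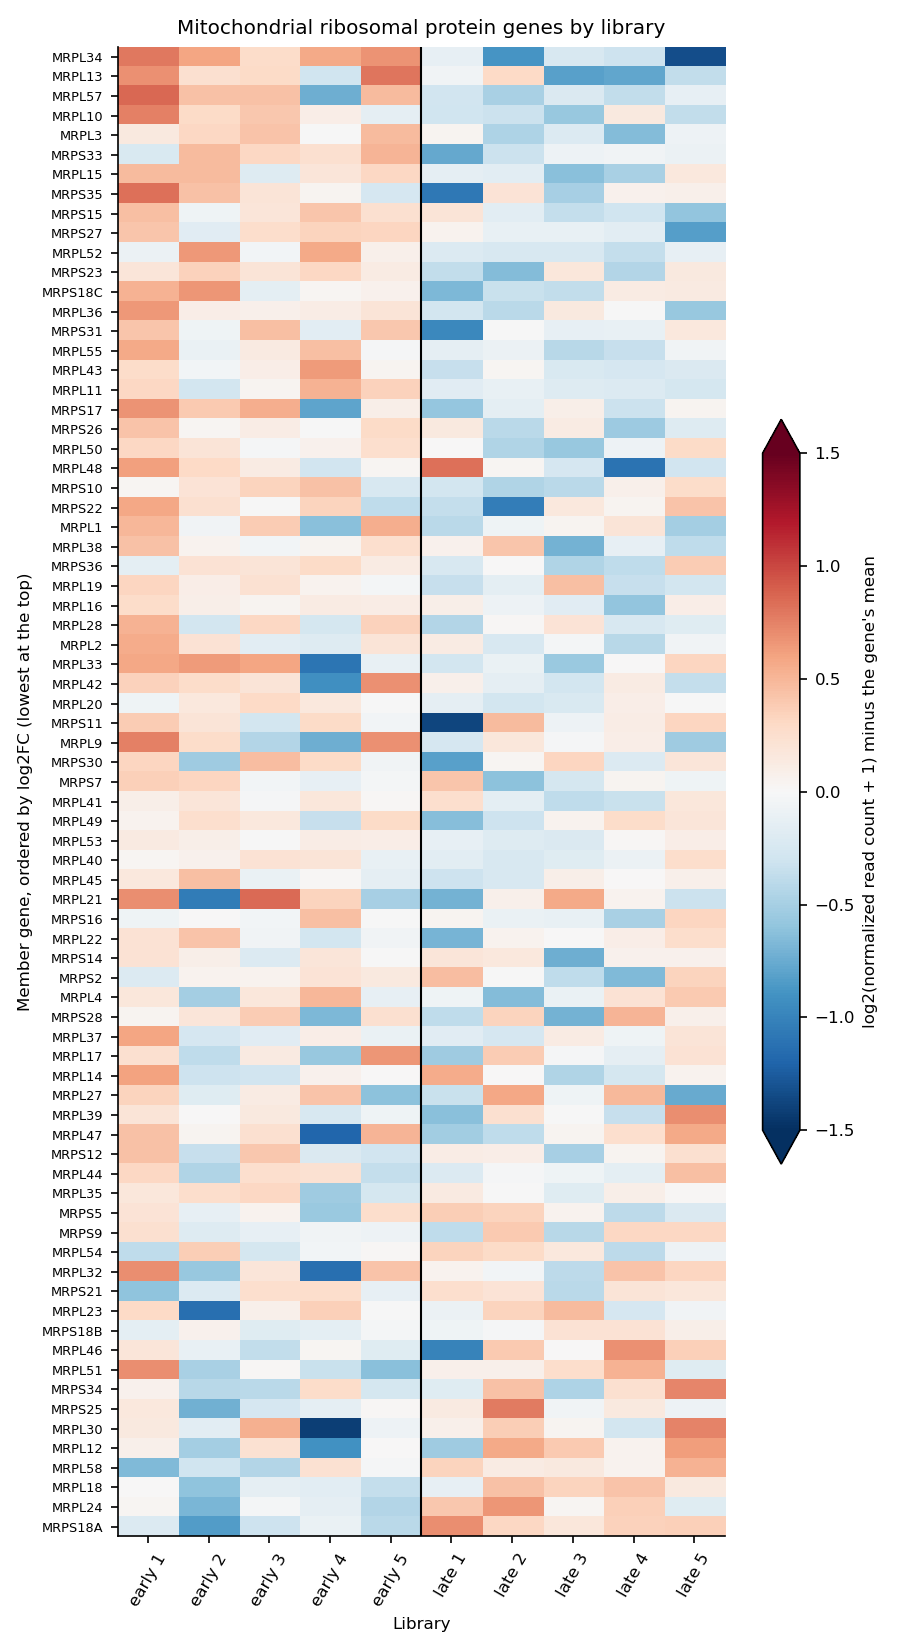
Each row is 1 of the 76 MRP genes and each column 1 library, early to the left and late to the right of the black line. Color gives log2(normalized read count + 1) minus the mean of the gene over the 10 libraries, and rows are ordered by log2FC with the lowest at the top. Early library 1 is mostly red, and the row of MRPL34 changes from red to blue at the line.

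Between the stages, the MRP genes moved little. The rule of the study requires a p of at most 0.05 after Benjamini-Yekutieli (BY) adjustment together with a log2 fold change (log2FC) of 1 or more in either direction. The study applied it to log2FC values that DESeq2 had shrunken towards 0, a step not taken here. With these thresholds limma found 0 of the 76 members, against 2.17% of all genes tested. On the recovered reads DESeq2 found 1 member, against 6.53% of all genes, and edgeR 0, against 1.43%. The member found by DESeq2, MRPL34, had an unshrunken log2FC of -1.10, near the fold threshold. With BH adjustment and no fold threshold, 1 member was higher in late CCH, MRPS18A, against 7.92% of all genes, and 1 was lower, MRPL34, against 7.69%. At an unadjusted p of at most 0.05, 4 members were higher (15.6% of all genes) and 13 lower (15.3% of all genes). The 13 became 4 when columns were scaled to equal totals, with 4 members higher as before, against 31.3% of all genes in either direction. The 13 became 5 without early library 1 and 7 without late library 4, fits for which the share of all genes was not worked out. The late libraries all lay above the early ones for 1 member, MRPS18A (5.91% of all genes), and all below them for 2 members, MRPL34 and MRPL52 (6.05% of all genes). By each of these rules except the unadjusted p in the lower direction, the members' share was below that of all genes. In bulk tissue, fewer cells of a type and less RNA per cell cannot be told apart in any of these values.

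The log2FC, late minus early on the log2(normalized read count + 1) scale, was negative for 56 members and positive for 20. Its median was -0.19 over the members and -0.004 over all genes tested, and the members ranged from -1.15 for MRPL34 to 0.75 for MRPS18A. The median of the 49 MRPL genes was -0.17 and that of the 27 MRPS genes -0.20. Under equal column totals, where the median of all genes moved to 0.08, 48 members were negative and their median was -0.10. The members' median stayed between -0.20 and -0.10 under the scalings tried. For 72 of the 76 members the fitted change was under 1.5-fold in either direction. The 95% interval of the log2FC lay within -1 and 1 for 66 members (86.8%), compared with 45.0% of all genes tested. For most members a change of 2-fold or more therefore lay outside the interval, which does not show that they were unchanged. The width of an interval follows the spread among tumors, which was lower for the members than for all genes. Such intervals were also found for 72.8% of the cytosolic ribosomal protein genes tested, whose median log2FC was -0.52.

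**Figure D2:**
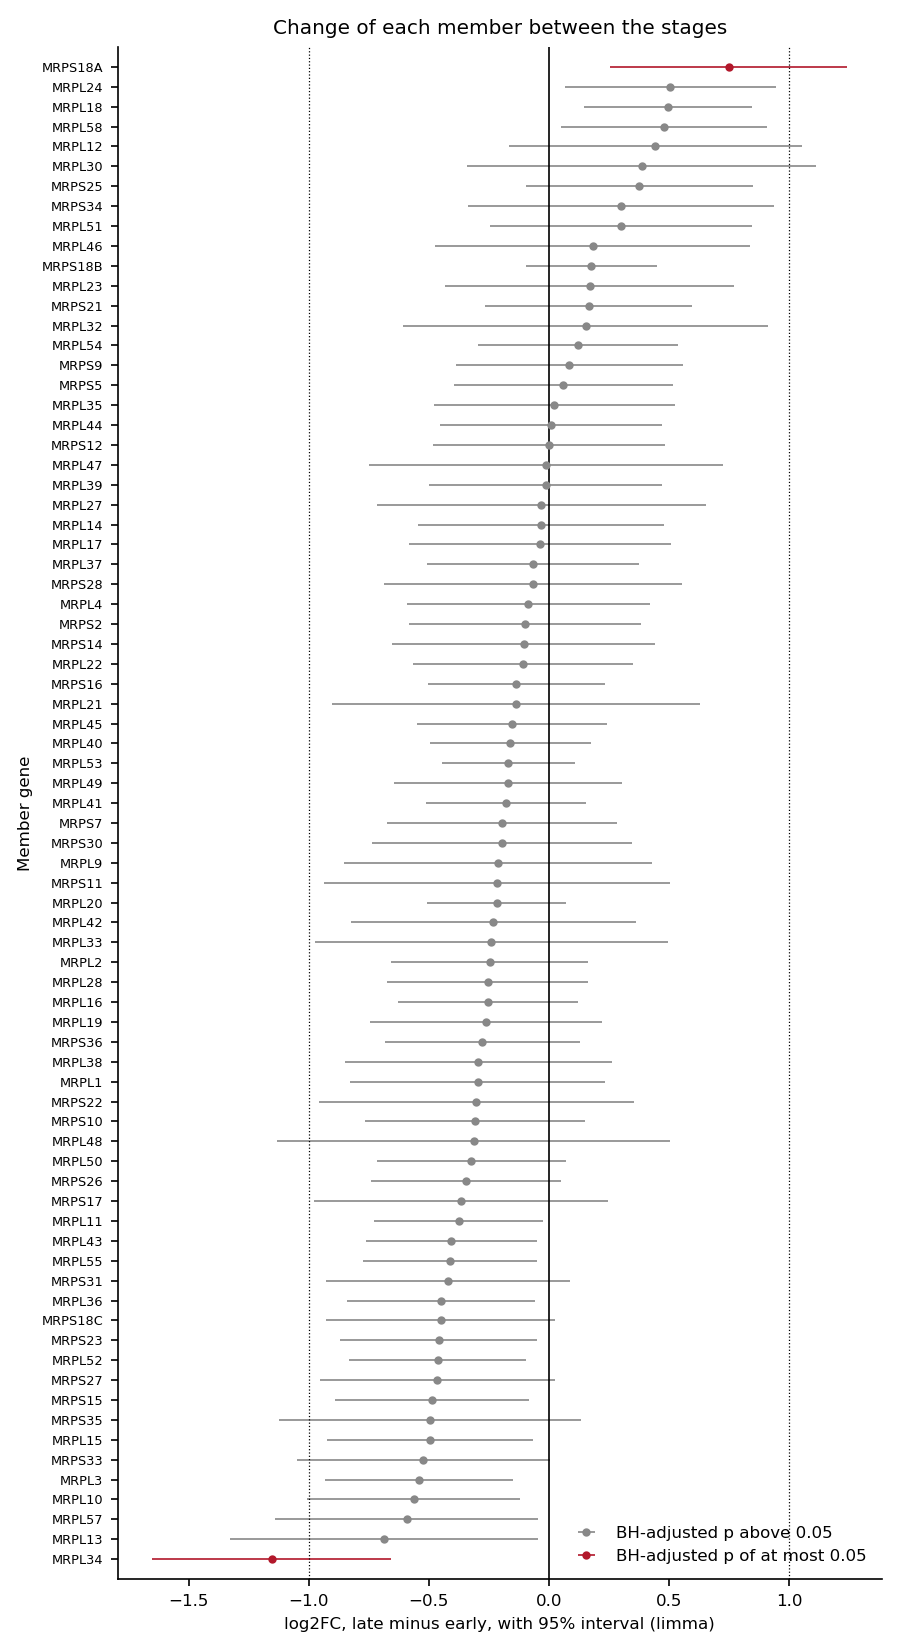
Points are the log2FC of late minus early CCH for each of the 76 MRP genes, bars the 95% interval from limma, and dotted lines mark -1 and 1. MRPS18A at the top and MRPL34 at the bottom, in red, are the members with a BH-adjusted p of at most 0.05, and 56 points lie below 0.

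MRPL34, a small protein of the large subunit, had the largest difference. Its normalized read count was 386.5, 335.9, 269.6, 332.4 and 356.4 in the early libraries and 204.8, 120.8, 188.9, 180.0 and 88.1 in the late libraries. Every late library lay below every early one, and late libraries 2 and 5 were the lowest. With means of 336 ± 43.0 in early and 157 ± 49.7 in late CCH (SD, n = 5 each), MRPL34 had a log2FC of -1.15 ± 0.23 (SE), a BH-adjusted p of 0.00703 and a BY-adjusted p of 0.0703 in limma. Leaving out any 1 of the 10 libraries kept it past the BH threshold, with log2FC values from -1.27 to -0.97, and met the stricter rule with weights per library (3.37% of all genes) and with DESeq2. The annotation of the later assembly UU_Cfam_GSD_1.0 places ABHD8 over part of MRPL34 and DDA1 within 2 kb. ABHD8 had means of 59.6 and 68.2 in early and late CCH (log2FC 0.18 ± 0.30, SE) and DDA1 had 328 and 329 (log2FC 0.01 ± 0.15, SE). The fall of MRPL34 was not seen at these neighbors. The study describes QuantSeq 3′ libraries as strand-specific, but whether reads were counted by strand is not stated.

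Among large subunit genes with a negative log2FC, MRPL34 was followed by unadjusted p by MRPL3, MRPL10 (described with the stalk), MRPL52 and MRPL15. None of these passed the BH threshold in limma with all libraries and the main settings. MRPL3, which contacts ribosomal RNA in the body of the subunit, had 162.8, 183.3, 199.0, 146.5 and 204.0 in early and 151.1, 106.6, 127.8, 93.1 and 139.5 in late libraries. Only late library 1 reached into the early range (log2FC -0.54 ± 0.18, SE, BH-adjusted p = 0.0590). MRPL3 passed the BH threshold in 5 of the 22 fits run, 2 of them among the 10 without 1 library. MRPL52, a subunit protein without a bacterial counterpart, had 287.5, 482.0, 297.6, 453.7 and 323.1 in early libraries and a narrow 266.5, 259.7, 259.6, 239.3 and 280.1 in late libraries. The stages did not overlap, but the early libraries split into a higher pair and a lower 3 that lay just above the late values (log2FC -0.46 ± 0.17, SE, BH-adjusted p = 0.0837). MRPL52 shares its position with SLC7A7, an amino acid transporter gene, which had means of 38.7 and 73.6 (log2FC 0.90 ± 0.53, SE). MRPL15 ranged from 133 to 213 in early and from 98.8 to 171 in late libraries (log2FC -0.50 ± 0.20, SE, BH-adjusted p = 0.108), with overlapping groups.

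MRPL18, a protein of the central protuberance of the large subunit, pointed the other way. It had 355.1, 233.5, 322.0, 317.4 and 277.0 in early and 326.1, 480.5, 447.4, 475.5 and 393.4 in late libraries. Late library 1 lay inside the early range and the other late libraries above it, which gave a log2FC of 0.50 ± 0.16 (SE, BH-adjusted p = 0.0557, limma). Without late library 1 the log2FC was 0.59 and the BH-adjusted p 0.0351. Its neighbor TCP1, a chaperonin subunit gene within 2 kb, had means of 527 and 444 (log2FC -0.28 ± 0.17, SE).

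The stalk recruits translation factors to the large subunit, with MRPL10 as its anchor, MRPL11 at its base and MRPL12 as the mobile part, a protein that also binds the mitochondrial RNA polymerase. These 3 genes, grouped after their values were seen, did not share a direction. MRPL10 had 204.7, 147.9, 160.1, 130.0 and 110.6 in early and 98.4, 97.0, 81.4, 134.0 and 93.4 in late libraries. Only late library 4 overlapped the early values (log2FC -0.56 ± 0.20, SE, BH-adjusted p = 0.0795, limma). MRPL11 was 288 ± 58.7 in early and 218 ± 8.93 in late CCH (SD, n = 5 each, log2FC -0.38 ± 0.16, SE, BH-adjusted p = 0.134). MRPL12 was 87.8 ± 26.5 in early and 119.7 ± 35.0 in late CCH, with a log2FC of 0.44 ± 0.28 (SE, BH-adjusted p = 0.312) and strongly overlapping groups. None of the stalk genes passed the BH threshold in limma, and MRPL11 did so without early library 2, with a log2FC of -0.49 (BH-adjusted p = 0.0404).

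Around the opening through which the new protein leaves the large subunit, MRPL24 was the member with the largest log2FC among 6 genes that were likewise grouped after their values were seen. It had 191.4, 116.3, 184.5, 170.9 and 138.5 in early and 248.6, 297.8, 191.8, 240.3 and 165.8 in late libraries, so that late library 5 lay inside the early range and late library 3 just above it. The log2FC was 0.51 ± 0.20 (SE, BH-adjusted p = 0.108, limma). MRPL24 overlaps RRNAD1 in the annotation, and RRNAD1 had a like change, from 165 ± 25.7 to 241 ± 18.7 (SD, n = 5 each, log2FC 0.55 ± 0.15, SE, BH-adjusted p = 0.0271). Without the strand setting of the counting, it is not known whether reads of the pair were kept apart. The other members at the exit, MRPL17, MRPL22, MRPL23, MRPL45 and MRPL47, had log2FC values between -0.15 and 0.17.

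MRPL58, also known as ICT1, is a peptidyl-tRNA hydrolase built into the large subunit, which frees stalled ribosomes from messages that lack a stop codon. It had 76.2, 97.7, 88.7, 141.8 and 119.2 in early and 153.1, 132.2, 133.7, 125.8 and 174.2 in late libraries. All late values exceeded those of 4 early libraries, early library 4 being the exception, and the log2FC of 0.48 ± 0.20 (SE) had a BH-adjusted p of 0.12 in limma.

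**Figure D3:**
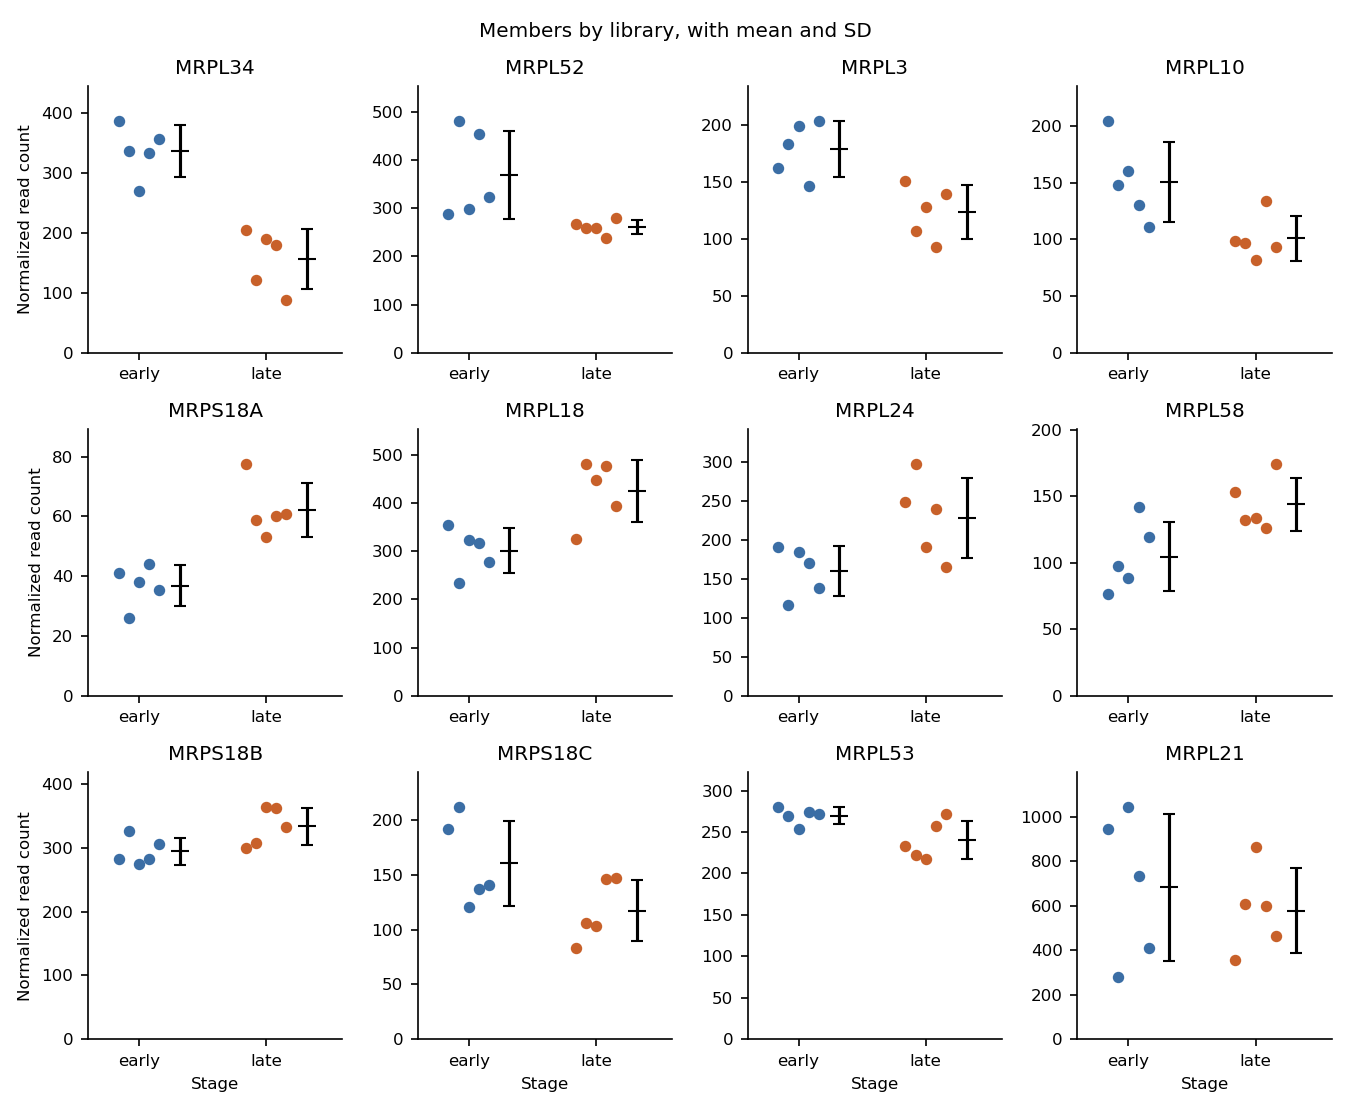
Normalized read counts of 12 MRP genes in each library, early in blue and late in orange, with the mean and SD of the 5 libraries as black bars on axes that start at 0. Late points lie wholly below early points for MRPL34 and MRPL52 and wholly above them for MRPS18A, and the points overlap for the other 9 genes.

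The MRPS18 genes are 3 relatives of a single bacterial gene. MRPS18C takes the place of the bacterial protein in the small subunit, MRPS18B sits elsewhere in the small subunit, and MRPS18A, in spite of its name, is part of the large subunit. MRPS18A had 40.9, 26.1, 38.0, 44.1 and 35.4 in early and 77.6, 59.0, 53.3, 60.3 and 60.9 in late libraries. All late libraries lay above all early ones, late library 1 the highest. With means of 36.9 ± 6.88 in early and 62.2 ± 9.10 in late CCH (SD, n = 5 each), MRPS18A had a log2FC of 0.75 ± 0.23 (SE) and a BH-adjusted p of 0.0428 in limma. This call was close to the threshold. Of the 10 fits with 1 library omitted it was kept in 2, those without early library 4 and without late library 3, and lost in the other 8, with BH-adjusted p-values of 0.066 to 0.0907 and log2FC values of 0.63 to 0.79.

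MRPS18C had 192.3, 212.1, 121.2, 137.0 and 140.6 in early and 83.5, 106.6, 103.6, 146.2 and 146.9 in late libraries, with late libraries 4 and 5 inside the early range (log2FC -0.45 ± 0.22, SE, BH-adjusted p = 0.187, limma). MRPS18B differed least of the family, at 295 ± 21.6 in early and 334 ± 29.8 in late CCH (SD, n = 5 each, log2FC 0.18, 95% interval -0.10 to 0.45, BH-adjusted p = 0.372). Since MRPS18A and MRPS18C lay on opposite sides, their ratio within a library, which does not depend on the scaling of the columns, was 0.123 to 0.322 in early and 0.413 to 0.929 in late libraries. The ranges do not overlap, and the ratio was formed after the values of the genes were seen, so that no test was made. MRPS18C overlaps ABRAXAS1, a DNA repair gene, which had means of 20.4 and 36.7 (log2FC 0.90 ± 0.43, SE, BH-adjusted p = 0.181).

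Of the small subunit proteins proper, none passed the BH threshold in limma. The lowest unadjusted p among those that were lower belonged to MRPS15, a protein that binds ribosomal RNA, at 177.1, 122.8, 146.5, 171.7 and 152.4 in early and 148.2, 115.1, 100.7, 104.3 and 85.0 in late libraries. Late library 1 alone lay well within the early range (log2FC -0.49 ± 0.19, SE, BH-adjusted p = 0.0956). MRPS25, which has no bacterial counterpart, was 126 ± 27.1 in early and 164 ± 44.6 in late CCH, with overlapping groups (log2FC 0.38 ± 0.22, SE, BH-adjusted p = 0.263). MRPS12, a protein of the decoding region, had a log2FC of 0.00, with 87.5 to 151 in early and 78.5 to 132 in late libraries. MRPS30, named for the small but placed in the large subunit, was 168 ± 41.9 and 148 ± 40.5 (SD, n = 5 each, log2FC -0.20 ± 0.25, SE).

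The members also varied less among tumors of the same stage than all genes tested. The within-stage SD of log2(normalized read count + 1) had a median of 0.32 over the members and 0.45 over all genes tested, and 58 of the 76 members lay below the latter. These medians are not matched for level, which was higher among the members. Cytosolic ribosomal protein genes, at a higher level still, had a lower median SD of 0.26. The 14 mitochondrial translation factors tested were near the members at 0.34. Poisson counting error alone gives a median SD of 0.13 at the depth of the members, less than the SD observed. The highest library exceeded the lowest by 1.28-fold to 4.59-fold, with a median of 2.21-fold, and by less than 2-fold for 28 members. The steadiest member was MRPL53, a large subunit protein without a bacterial counterpart, with an SD of 0.10, near its counting error of 0.09. It ranged from 253 to 279.9 in early and from 218 to 272 in late libraries. MRPS18B followed with an SD of 0.12, and MRPL20 with 0.15, at 346 to 444 in early and 298 to 387 in late libraries.

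MRPL21 combined the highest mean with the largest spread. It had 943.4, 280.1, 1042, 731.7 and 410.1 in early and 354.0, 608.9, 861.9, 600.2 and 461.6 in late libraries, so that tumors of the early stage differed by 3.72-fold while the stages overlapped almost wholly (SD 0.67, log2FC -0.14 ± 0.35, SE). MRPL30 and MRPL47 were next with SDs of 0.59 and 0.58. Both were lowest in early library 4, at 28.4, where the next library had 63.4 for MRPL30 and 45.7 for MRPL47. The lowest value of a member fell most often in late library 3 (15 members, 19.7%, against 10.4% of all genes tested), late library 1 (14 members, 18.4% against 10.8%) and early library 4 (13 members, 17.1% against 11.3%). Those of early library 4 also included MRPL32, MRPL33 and MRPL57, which were singled out after their values were seen. MRPL57 had 124.4 in early library 4, where the next library had 147.5. Its log2FC was -0.59 with all libraries (BH-adjusted p = 0.129, limma) and -0.85 without early library 4 (BH-adjusted p = 0.00619). Early library 4 was the library with the most reads.

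**Figure D4:**
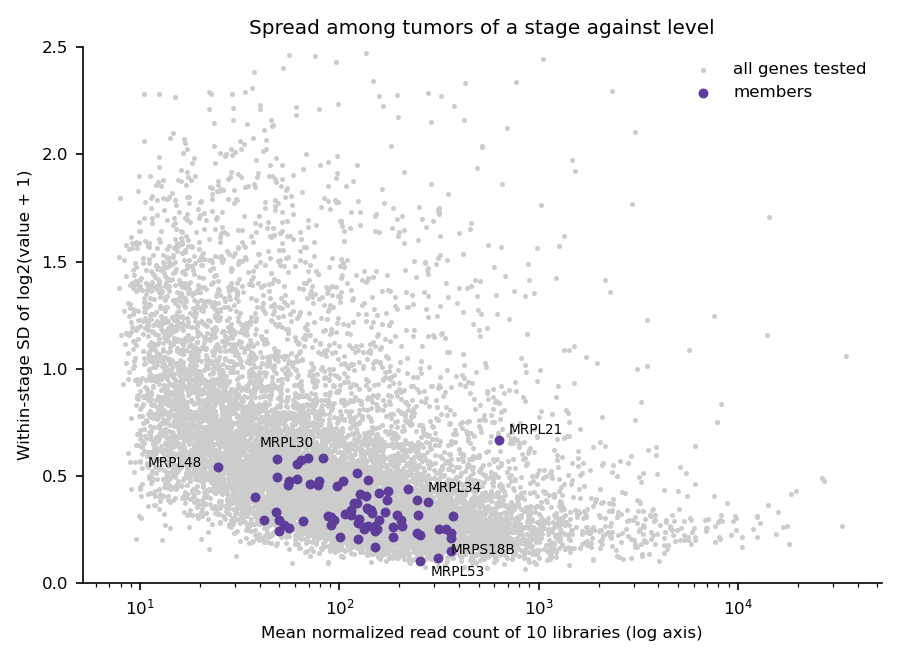
Within-stage SD of log2(normalized read count + 1) against the mean normalized read count of the 10 libraries (log axis), for the 12397 genes tested (gray) and the 76 MRP genes (violet). Of the members, 58 lie below the median SD of all genes tested, a comparison not matched for level. MRPL21 has the largest SD of the members, and 34 genes, none of them a member, lie above the axis limit of 2.5.

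Early library 1 held the highest value of 25 members (32.9%), while it did so for 8.38% of all genes tested. The median deviation of the members from their gene means, on the log2 scale, was 0.30 in this library and between 0.01 and 0.12 in the other early libraries. In the late libraries it was -0.14, -0.02, -0.11, -0.03 and 0.08. The corresponding median over all genes lay between 0.02 and 0.05 in every library. In early library 1, 65 of the 76 members lay above their own mean, against 40 to 48 in the other early libraries and 27 to 44 in the late libraries. Late library 5, with 0.08, overlapped the early libraries.

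Summed over the family, the members took 0.429, 0.344, 0.385, 0.337 and 0.352% of the assigned reads in early and 0.333, 0.362, 0.346, 0.338 and 0.370% in late libraries. The means were 0.369% ± 0.0379 and 0.350% ± 0.0159 (SD, n = 5 each), and the difference of -0.0195 percentage points was smaller than the spread of the early libraries. Without early library 1 it was -0.00463. The MRPL genes took 0.265% ± 0.0320 in early and 0.247% ± 0.0103 in late CCH, and the MRPS genes 0.105% ± 0.00609 and 0.103% ± 0.00750.

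The cytosolic ribosomal protein genes, set beside the MRP genes as a reference, encode the proteins of the ribosomes outside the mitochondria. They took 15.4, 11.4, 15.8, 17.4 and 14.7% of the reads in early and 10.96, 9.89, 13.7, 10.03 and 10.01% in late libraries. Of the 81 tested, 36 were lower (7.69% of all genes tested) and 0 higher (7.92% of all genes tested) at the BH threshold in limma. The 36 became 25 under equal column totals. Omitting 1 library moved the 36 to between 19 and 51, with 19 without early library 5 or late library 2, 21 without late library 4, 22 without early library 1 and 23 without early library 3, and no filter on low values gave 19. At an unadjusted p of at most 0.05, 54 were lower and 0 higher. With edgeR 36 were lower and with DESeq2 44. Their median log2FC was -0.52, with values from -1.37 for RPL37 to 0.25 for RPL8. There were 33.0 to 51.6 cytosolic reads for each MRP read in early and 27.0 to 39.7 in late libraries, and these ranges overlap. The fall among the cytosolic genes was thus not matched in size by the members, with a median of -0.52 beside -0.19, and the difference between the families was not tested.

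**Figure D5:**
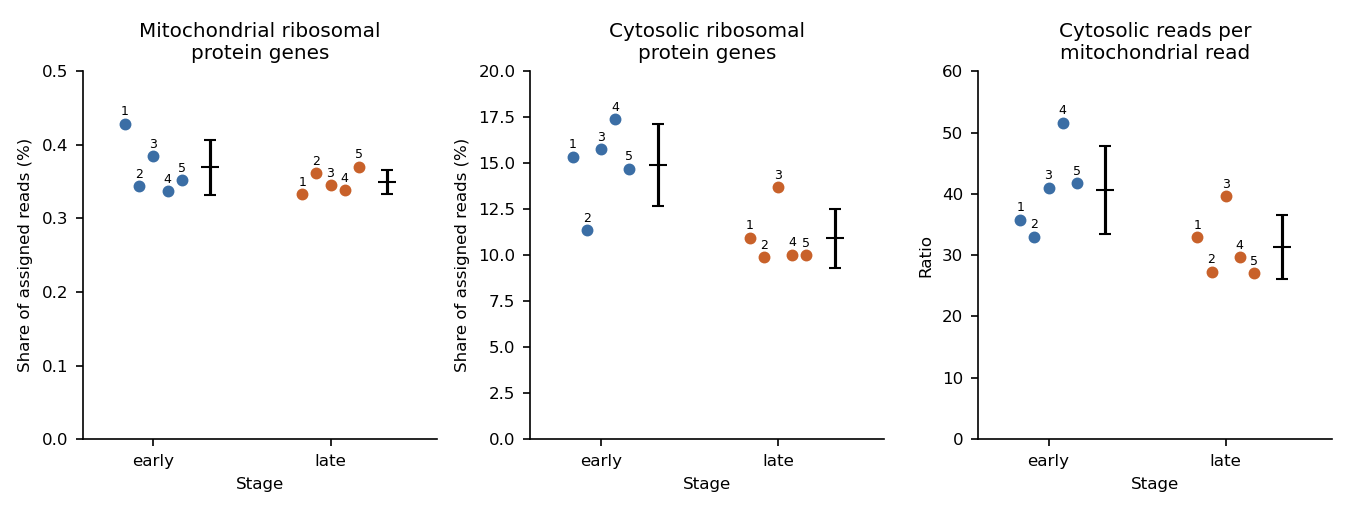
Share of assigned reads taken by the 76 MRP genes (left) and by the cytosolic ribosomal protein genes (middle), and the number of cytosolic reads per MRP read (right), for each numbered library with the mean and SD of 5 libraries. The MRP shares overlap, with 0.337 to 0.429% in early and 0.333 to 0.370% in late libraries, and the cytosolic shares of 4 late libraries lie below all early ones.

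Genes that act together with the MRP genes were described by lists, none of which was tested as a set. Of all genes tested, 7.92% were higher and 7.69% lower at the BH threshold in limma. How far the calls of single list genes held in fits without 1 library was not worked out. The mitochondrial ribosome also holds proteins whose symbols do not begin with MRP, and of the 5 tested, DAP3, PTCD3, AURKAIP1, CHCHD1 and GADD45GIP1, 0 passed the BH threshold in limma in either direction and 0 had an unadjusted p of at most 0.05. Their log2FC values ran from -0.39 for PTCD3 to 0.05 for DAP3, with a median of -0.28. DAP3, a GTP-binding protein of the small subunit, was 101 ± 8.59 in early and 109 ± 34.3 in late CCH (SD, n = 5 each). Of 26 factors that build the mitochondrial ribosome, 1 was lower and 0 were higher, with a median log2FC of -0.24. The one that fell was ERAL1, a chaperone of the small subunit ribosomal RNA, with 139.9, 112.6, 124.8, 97.7 and 139.6 in early and 68.6, 80.9, 54.2, 80.8 and 102.8 in late libraries. Late library 5 reached into the early range (log2FC -0.68 ± 0.21, SE, BH-adjusted p = 0.0426, limma). The extremes of this list were TRMT61B at -1.05 ± 0.39 (SE) and METTL17 at 0.77 ± 0.52, and both missed the threshold.

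Of the 14 mitochondrial translation factors tested, 0 passed the BH threshold and 0 had an unadjusted p of at most 0.05 in limma, and their median log2FC was 0.02. MTFMT, which formylates the initiator transfer RNA, was lowest at -0.84 ± 0.48 (SE), and the initiation factor MTIF2 highest at 0.45 ± 0.30. Of 22 genes for charging mitochondrial transfer RNAs, 1 fell and 0 rose at the BH threshold (7.69% and 7.92% of all genes tested). GATC, a subunit of the enzyme that makes glutaminyl-tRNA by amidation, was 129 ± 17.6 in early and 66.5 ± 15.3 in late CCH (SD, n = 5 each, log2FC -0.96 ± 0.20, SE, BH-adjusted p = 0.00859, limma), with all late libraries below all early ones. SARS2 was highest at 1.18 ± 0.48 (SE, BH-adjusted p = 0.113).

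Of 11 genes for transcription and upkeep of mitochondrial DNA, 1 rose and 1 fell at the BH threshold (7.92% and 7.69% of all genes tested). Neither call was followed in fits without 1 library. TFAM, which packages mitochondrial DNA and starts its transcription, rose from 125 ± 25.6 to 193 ± 29.5 (SD, n = 5 each, log2FC 0.64 ± 0.19, SE, BH-adjusted p = 0.0380, limma), and late library 2 with 148 overlapped early library 4 with 158. SSBP1, the mitochondrial single-stranded DNA binding protein, fell from 97.9 ± 9.07 to 64.1 ± 8.85 without overlap (log2FC -0.61 ± 0.18, SE, BH-adjusted p = 0.0372). TWNK, the replicative helicase, had the highest log2FC of this list at 0.83 ± 0.75 (SE) and a mean below 12 in both stages. POLRMT, the mitochondrial RNA polymerase, had 42.0 ± 8.79 and 40.4 ± 8.10 (log2FC -0.05 ± 0.25, SE). The transcripts encoded in mitochondrial DNA, which these ribosomes translate, were not analysed here.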

How the data were processed

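QuantSeq 3′ libraries of 5 early and 5 late CCH samples were compared. The authors trimmed reads with Cutadapt, aligned them with STAR to CanFam3.1, counted them per gene in 2 rounds of featureCounts (the second with genes extended by 2 kb at the 3′ end) and split multi-mapped reads evenly, so that members with near-identical copies elsewhere are uncertain. Tool versions are not given in the sources used here. The deposited values are a normalized signal, read counts divided by a size factor for each library, and DESeq2 is among the tools the labels list. They were whole multiples of the value of 1 read (100% of 166096 values above 0, tolerance 1e-06), which gave totals of 2973125 to 4439709 reads. Even splitting of multi-mapped reads can give fractions of a read, and how the whole numbers arose, by rounding or otherwise, is not stated. Another 11 columns, which belong to none of the samples, were left out. Column names give the stage but not the sample, and library numbers are names only.

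A filter of 10 or more in 5 or more libraries left 12397 genes. These were tested on log2(value + 1) with limma 3.58.1 (mean-variance trend, R 4.3.3), late minus early, without covariates, with adjustment over all of them. This scale understates the change of low genes. edgeR 4.0.16 and DESeq2 1.42.0 were run on the recovered reads, and library measures were compared with exact permutation tests over 252 assignments. The scripts were tested on simulated data. Each sample is 1 tumor. The p-values of limma, edgeR and DESeq2 set the difference between stages against the spread between tumors of a stage. Named members were the 6 with the smallest p in each direction, the 5 with the highest and 3 with the lowest level, the 3 with the largest and 3 with the smallest within-stage SD and the MRPS18 genes, and from each list the extremes of log2FC. Members and lists were chosen with earlier results of these data known, and genes named beyond this rule after their values were seen. Neighbors came from RefSeq for UU_Cfam_GSD_1.0, which held 75 of the 76 members. Alternatives covered scaling, pseudocount, filter, moderation, weights, test and the omission of each library.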

Additional observations from a re-analysis of the deposited data

Results flagged for a closer look

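For each of the family measures and named members, the 5 libraries of a stage were searched for a value that stands apart, taking the gap between an extreme library and the one next to it as a share of the whole range. Of 56 such sets, 3 had a share above the critical value of 0.71. About 1 in 20 sets is picked out by chance, which gives 2.8 here, so that nothing can be read from their number. MRPS14, a protein of the small subunit, had 24.2 in late library 3 and at least 43.0 in the others, a share of 0.832. MRPS25 had 242 in late library 2 and at most 155 in the others, a share of 0.795. The cytosolic ribosomal protein genes took 13.7% of the reads in late library 3 and at most 10.96% in the others, a share of 0.718.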

How the results depend on the processing

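No paired analysis was possible because no column name holds a replicate number and each tumor belongs to a different dog. The number of members that met the BY rule (0) became 1 with weights per library, 1 with DESeq2 and 1 with BH in place of BY, MRPL34 in each case, and was 0 to 0 in fits without 1 library. The number past BH (2) was 1 without a filter, 5 with weights, 4 with DESeq2, 1 among members that overlap no other gene (an alternative chosen after seeing the data) and 1 to 4 without 1 library. Higher in late CCH (1) became 2 with equal column totals, with weights and with DESeq2, 0 without a filter and 0 to 1 without 1 library. Lower (1) became 2 with a mean of at least 50 and with DESeq2, 3 with weights and 1 to 3 without 1 library. At an unadjusted p of at most 0.05, 4 were lower with equal column totals, and without 1 library 5 to 12 were lower and 2 to 4 higher. The number of members without overlap (3) was 4 to 8 without 1 library, where fewer libraries are compared and any gene separates more easily. Shares of all genes are given above for the BY rule with weights, DESeq2 and edgeR, and for the unadjusted p with equal column totals. For the other alternatives in this paragraph no such share was worked out. Their counts therefore do not show whether the members changed more or less than all genes. The exact p of total reads was 0.00794 to 0.0635 without 1 library. Apart from the construction of BY, BH and the filters, the cause of these changes was not tested.

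The median log2FC of the members stayed negative throughout (-0.22 to -0.15 without 1 library). Of 500 log2FC values of named members under alternatives, 471 kept direction and side of the BH threshold, 10 passed it newly, 9 no longer passed and 10 reversed. The reversals concern members near 0: MRPL21 (0.0221 without early library 1, 0.0579 without early library 3, 0.0237 without late library 1, within -0.415 to 0.0579), MRPL47 (0.0744 with equal column totals, -0.313 to 0.114 without 1 library) and MRPS14 (0.0655 without late library 3, the highest of -0.171 to 0.0655). Depth limits the low members most, as MRPL48 had as few as 10 reads in a library.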

Other observations

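Genes of dividing cells and regulators of genes for mitochondrial proteins were measured beside the MRP genes. Of 18 proliferation genes, 0 passed the BH threshold in limma, and 2 were lower and 0 higher at an unadjusted p of at most 0.05, with a median log2FC of -0.25. TOP2A, a topoisomerase of dividing cells, was 810 ± 148 in early and 550 ± 170 in late CCH (SD, n = 5 each, log2FC -0.60 ± 0.23, SE, BH-adjusted p = 0.0983), and MKI67 had the highest value of the list at 0.67 ± 0.66. Of 9 regulators tested, 0 passed the BH threshold in limma and 3 had an unadjusted p of at most 0.05. MYC, a growth regulator of ribosomal and mitochondrial genes, had 137.1, 139.6, 128.5, 45.7 and 214.7 in early and 45.7, 62.8, 41.6, 32.7 and 122.8 in late libraries. Late library 5 lay near the early values and early library 4 among the late ones (log2FC -1.11 ± 0.42, SE, BH-adjusted p = 0.0913). GABPB2, a subunit of an ETS transcription factor, had a log2FC of 1.13 ± 0.44 (SE, BH-adjusted p = 0.101), and NRF1 had -0.11 ± 0.33.

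The other cell type markers were as follows, with summed normalized read counts per library. Among all genes tested, 7.92% were higher and 7.69% lower in late CCH at the BH threshold in limma. Of 7 B and plasma cell markers, 3 were higher in late CCH at the BH threshold (537 to 805 in early and 767 to 3081 in late libraries), and CD79B, MS4A1 and PAX5 were at 0 in some early libraries. Of 8 macrophage markers 3 were higher (1144 to 9236 and 5492 to 12380). Of 11 keratinocyte markers 1 was lower (987 to 17160 and 708 to 8874), and of 10 fibroblast and endothelium markers 0 passed the BH threshold in limma, with 2 at an unadjusted p of at most 0.05 (7794 to 60740 and 11020 to 36520). Their part in the values of the MRP genes was not tested.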
